A study of Mus musculus with 24 samples.

Results

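Delayed weaning was compared with standard weaning in male mice at postnatal day 28 (p28), in the inguinal white adipose tissue, a fat pad under the skin of the groin. The comparison rests on 8 of the 24 samples of the series, chosen by their labels: 4 males under delayed weaning (DW), which had stayed with their mother, and 4 males under standard weaning (SW), which had been taken from her at day 21 (p21). Each sample is 1 library of poly(A) RNA from 1 animal, and all 8 libraries were sequenced in the same lane. The strain, the litter and any treatment other than the weaning schedule are not given in the sources used here. The p-values therefore measure the spread between animals within groups, whatever litters they came from. That spread was pooled over all 24 samples of the series in 1 fit. Males taken at p21 (n = 4) are given as a reference level. The titles of those 4 libraries say p28, while their descriptions and age labels say p21, and the latter were followed. Females at p28 (4 DW and 4 SW) are other animals and are set beside the males where a value bears on them.

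In mice, weaning exchanges milk, which is rich in fat, for chow, which is rich in carbohydrate. White adipocytes make fatty acids from glucose with a set of enzymes that insulin and dietary carbohydrate induce, and take up preformed fatty acids from the blood when the diet supplies fat. A growing depot also gains cells by division of progenitors and of vascular and immune cells, and each adipocyte is wrapped in a basement membrane that has to be remodelled as the cell grows.

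Recovered reads per library, the whole reads that the authors' scaled values could be turned back into, ranged from 76850086 to 302145813 in SW and from 103323065 to 131905209 in DW males. The shallowest library, SW male 84, had reads in 15497 genes, and the other 7 had reads in 15946 to 16042. Adipoq, which encodes the adipocyte hormone adiponectin, was at 1318 to 1479 normalised reads in SW and 1276 to 1527 in DW males, and Plin1, the coat protein of the lipid droplet, at 1235 to 1455 and 1194 to 1351. Both groups thus held the defining adipocyte transcripts at overlapping levels. Over 12 adipocyte identity genes the median change was -0.029 on the log2 scale, with 4 positive and 8 negative, and it was -0.088 without SW male 124. Summed skeletal muscle markers ran from 663 to 9562 in SW and from 475 to 9563 in DW males. Summed mammary luminal epithelium markers were 48.9 in SW male 78, 1.99 to 3.40 in the other 3 SW males and 2.78 to 14.8 in DW males.

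All values below are normalised read counts, the authors' read number divided by a factor of each sample. They are not divided by transcript length, so levels are compared between animals and not between genes. Changes are DW minus SW in log2(value + 1), which understates the change of genes near 0. A gene was called at a limma adjusted p under 0.05 over 16005 genes. Of these genes, 37 were higher in DW (0.231%) and 4 were lower (0.0250%). A gene is described as not overlapping where all 4 animals of 1 group lay above all 4 of the other; 854 genes did so with DW higher (5.34% of those tested) and 544 with DW lower (3.40%). The median change over all genes was 0.0037, with 8171 positive and 7829 negative. The values of all 41 called genes did not overlap. At an unadjusted p under 0.05 there were 656 genes higher and 454 lower. The call is sensitive to single animals: 9 genes were called higher without DW male 87, 16 without SW male 84, 18 without DW male 79, 22 without SW male 124 and 23 without DW male 80, and the 4 lower calls became 1 without SW male 84, DW male 80 or DW male 87, 2 without DW male 79 and 13 without SW male 124. All 41 genes had the same sign in 20 other settings, except that 1 of them had no value in 1 setting. As their groups do not overlap, leaving out an animal could not turn a sign, so this does not offset the lost calls.

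**Figure D1:**
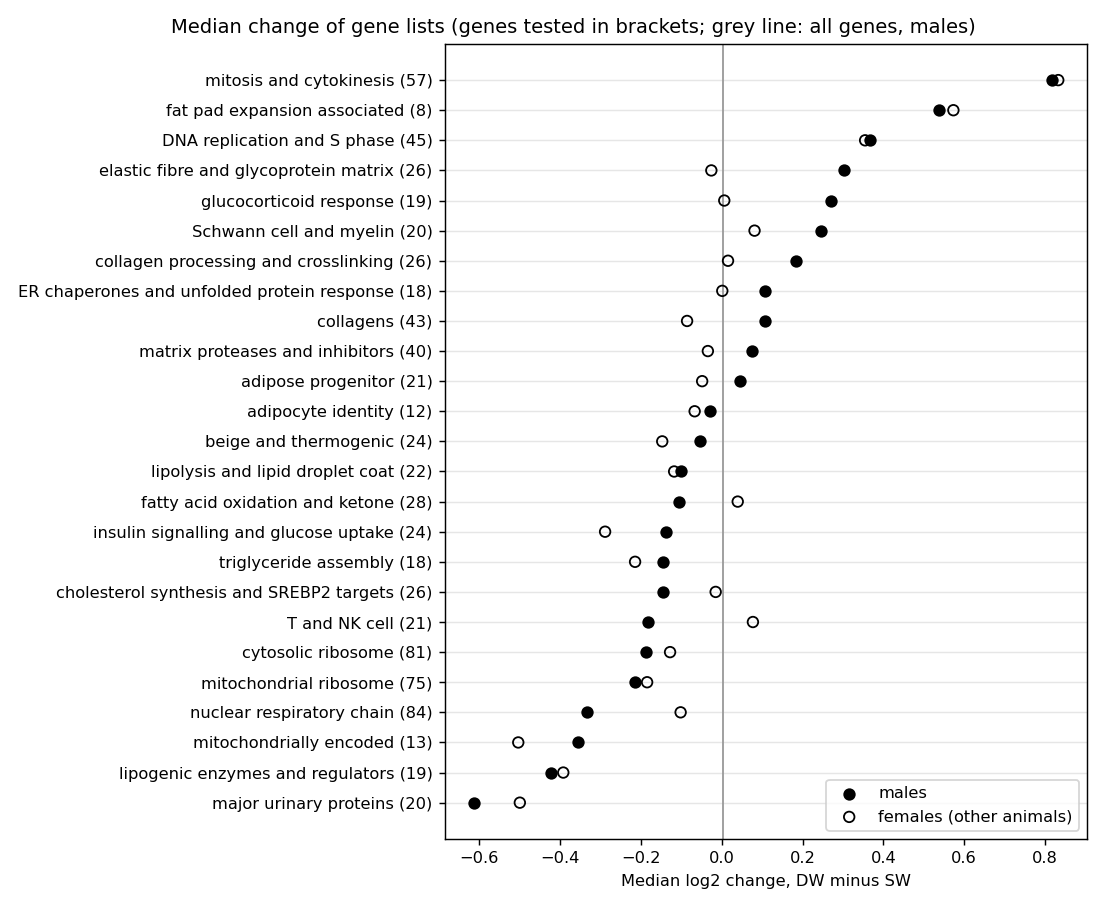
Median log2 change, DW minus SW, of 25 gene lists (x axis, log2 units) in males (filled) and in females, which are other animals (open), with the number of genes tested in brackets and the median of all genes in males as a grey line. In males the mitosis list is highest at 0.82, and the matrix list lies at 0.30, while lipogenic enzymes lie at -0.42 and major urinary proteins lowest at -0.61.

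The 37 genes that rose were mostly of the cell cycle: 24 belonged to lists of mitosis and cytokinesis or of DNA replication, and 13 belonged to neither. Of the 13, several are also known from dividing cells, namely Foxm1, the transcription factor that drives the genes of mitosis, Dlgap5 and Knstrn, which act on the spindle, Brip1, a DNA repair helicase, Prr11, and Stmn1, a microtubule destabiliser. Foxm1 was at 7.99, 6.94, 7.59 and 6.04 in SW males 78, 84, 85 and 124, an order kept below, and at 13.8, 12.7, 14.2 and 15.8 in DW males 79, 80, 86 and 87, likewise kept. Every DW male was above every SW male, and the change was 0.90 (SE 0.157, limma adjusted p 0.0105). Foxm1 was not called without DW male 87 (adjusted p 0.0754) or with the run of animal numbers as a covariate. Stmn1 was at 28.2, 20.7, 23.4 and 18.1 in SW and 36.8, 33.3, 34.6 and 37.3 in DW males. Its groups did not overlap and it rose by 0.65 (SE 0.121, limma adjusted p 0.0159). All 57 mitosis genes were higher in DW without overlap, 23 of them were called, and their median change was 0.82. Among 45 replication genes 42 were positive, 29 did not overlap and 1 was called, with a median of 0.37. In bulk tissue, more dividing cells and more of these transcripts per cell cannot be told apart.

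The promoters of these genes are shown because most of the called cell-cycle genes shared letters there, as did most of the mitosis list, called or not. The searched motifs were TTTGAA, the core of the cell cycle genes homology region (CHR) through which many mitotic genes are repressed outside division, and CCAAT, the box bound by NF-Y. Both strands were searched in windows of 300 bases, 250 before and 50 after each RefSeq start (GRCm38.p6), and 29 of the 41 called genes had such a window. The CHR letters stood in 18 of 21 windows (85.7%) of the 19 matched cell-cycle genes that were called higher, in 2 of 13 windows (15.4%) of the called-higher genes of neither list, and in 12.8% of 15842 windows of all genes tested. CCAAT stood in 15 of the 21 windows (71.4%) and in 37.2% of all. In the whole mitosis list, called or not, CHR letters stood in 40 of 51 windows (78.4%) and CCAAT in 36 (70.6%). The letters thus go with the mitosis list and do not set the called genes apart within it. Ckap2l and Mki67, the latter the classic marker of cycling cells, were 2 of the 10 genes called in all 20 other settings, and Sncg is shown for contrast, as a called gene outside the cycle. Capitals mark TTTGAA or TTCAAA, and CCAAT or ATTGG, in the 250 bases before the start, written 5′ to 3′ on the strand of the gene.
Ckap2l, chr2:129297213-129297462, minus strand: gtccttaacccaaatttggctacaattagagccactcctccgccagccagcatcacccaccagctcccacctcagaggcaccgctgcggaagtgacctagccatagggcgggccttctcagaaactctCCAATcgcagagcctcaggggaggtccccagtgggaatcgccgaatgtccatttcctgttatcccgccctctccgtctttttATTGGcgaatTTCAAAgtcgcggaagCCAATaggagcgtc
Mki67, chr7:135716380-135716629, minus strand: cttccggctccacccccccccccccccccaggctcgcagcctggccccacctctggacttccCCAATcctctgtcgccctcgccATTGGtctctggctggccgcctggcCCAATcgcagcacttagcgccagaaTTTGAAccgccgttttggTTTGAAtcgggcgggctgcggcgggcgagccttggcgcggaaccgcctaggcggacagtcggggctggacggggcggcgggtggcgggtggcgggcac
Sncg, chr14:34374670-34374919, minus strand: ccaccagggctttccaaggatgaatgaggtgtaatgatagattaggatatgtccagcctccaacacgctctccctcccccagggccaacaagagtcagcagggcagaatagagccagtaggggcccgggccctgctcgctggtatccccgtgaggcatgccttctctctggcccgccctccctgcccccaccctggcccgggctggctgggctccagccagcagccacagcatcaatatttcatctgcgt
The Ckap2l stretch holds 1 CHR match and 3 CCAAT matches, the Mki67 stretch 2 and 3, and the Sncg stretch 0 of either. These matches describe letters and not binding. Mki67 was at 57.8, 44.6, 46.5 and 41.2 in SW and 95.7, 90.6, 92.0 and 127.9 in DW males. Ckap2l, a spindle protein, was at 6.19, 5.49, 5.35 and 3.65 in SW and 12.7, 11.6, 12.3 and 16.2 in DW males. Neither gene overlapped, and in both DW male 87 was the highest. Ckap2l rose by 1.21 (SE 0.157, limma adjusted p 0.000576).

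Outside the cell cycle, Sncg and Mest, whose transcripts are known to follow the expansion of fat pads, rose in DW males. Sncg, gamma-synuclein, a small protein of neurons and adipocytes, was at 102, 67.7, 96.1 and 152 in SW males and 279, 289.6, 195 and 292 in DW males. The groups did not overlap, DW male 86 was the lowest of its group, and the DW level also exceeded that of p21 males (134 ± 30.2, SD, n = 4). The group means were 105 ± 35.3 and 264 ± 46.3 (SD, n = 4 each), a rise of 1.37 (SE 0.29, limma adjusted p 0.0438). Sncg kept its call in 13 of 20 other settings, with changes of 1.18 to 1.58. It was not called by edgeR, nor without SW male 78, 84 or 85 or DW male 79, 80 or 87, with adjusted p up to 0.238. Mest, an imprinted gene of the paternal allele whose product sits in the endoplasmic reticulum and which marks growing adipocytes, was at 42.0, 26.7, 34.2 and 19.2 in SW and 74.5, 60.002, 60.5 and 64.98 in DW males. All DW values lay above all SW values and above the p21 mean of 36.0 ± 8.47. Mest rose by 1.12 (SE 0.224, limma adjusted p 0.0293), a call kept in 10 of 20 other settings with changes of 0.90 to 1.28. It was lost with edgeR, with only males in the fit, with the run of animal numbers as a covariate, and without SW male 84 or 124 or any 1 of the DW males (adjusted p up to 0.142).

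The list of fat pad expansion genes held 8 tested members, all of them positive, with a median change of 0.54 and these 2 calls. Sncg and Mest are themselves members, and the list was chosen with earlier results of these data known. Its count is therefore not separate support for them. Lep, which encodes leptin, the adipocyte hormone that reports fat mass, was at 127, 57.0, 67.3 and 149 in SW and 369, 241, 86.4 and 177 in DW males. DW male 86 fell within the SW range, so the groups overlapped, and the change of 1.05 (SE 0.335) was not called (limma adjusted p 0.336). Npr3, the clearance receptor for natriuretic peptides, was at 61.6 to 125 in SW and 106 to 163 in DW males, with overlap. Sfrp5, a secreted Wnt inhibitor, was at 1.75 to 2.21 and 1.68 to 3.30, also with overlap. Of 21 tested genes of the imprinted growth network, to which Mest belongs, 17 were positive, 3 did not overlap with DW higher and 1 with DW lower, and the median change was 0.098, which was 0.18 without SW male 85 and 0.15 without DW male 80. Igf2r, the receptor that clears the growth factor IGF2, was at 106 to 112 in SW and 119 to 133 in DW males without overlap, and Snrpn, an imprinted splicing protein, was lower at 5.82 to 6.59 in DW against 7.70 to 9.09. Neither was called, at limma adjusted p 0.719 and 0.187. Igf2, Dlk1, Peg3 and Plagl1 overlapped between the groups.

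**Figure D2:**
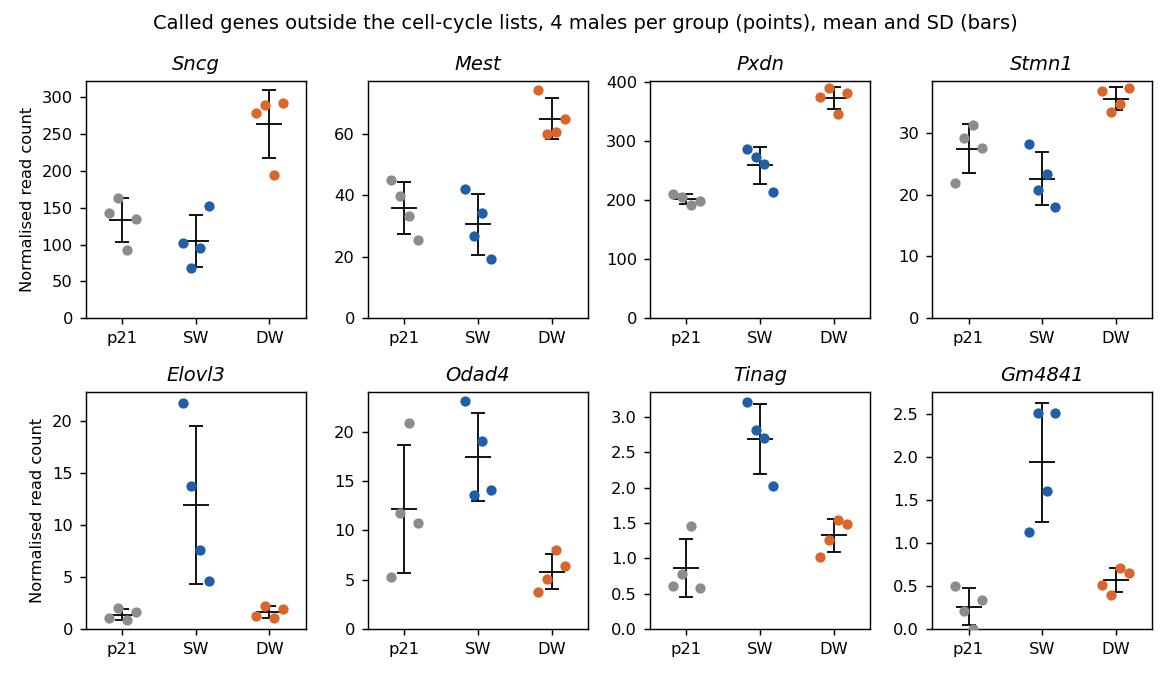
Normalised read counts (y axes, from 0) of 8 called genes outside the cell-cycle lists in males at p21 and at p28 after SW or DW, with each animal as a point and mean and SD as bars (n = 4 per group). The upper row rose in DW and the lower row fell, with no overlap between SW and DW in any panel, and in Elovl3 the DW animals lie at the p21 level.

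A further 4 of the 13 genes rose. Pxdn, peroxidasin, the enzyme that forms the sulfilimine crosslinks of collagen IV, is described with the basement membrane genes. Prrg3, a transmembrane protein with a vitamin K dependent domain, was at 39.8, 27.7, 26.3 and 22.1 in SW and 52.6, 43.8, 43.5 and 46.3 in DW males. It did not overlap and rose by 0.69 (SE 0.14, limma adjusted p 0.0304), a call kept in 8 of 20 other settings. Ptchd4, a patched-like protein, was near 0 in every animal, at 0.140 to 0.419 in SW and 0.930 to 1.11 in DW males. It rose by 0.61 (limma adjusted p 0.0100). Slc16a14, a transporter of the monocarboxylate family, was lower still, at 0.0634 to 0.268 and 0.371 to 0.663, and kept its call in 2 of 19 other settings.

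The 4 genes that fell were Elovl3, Odad4, Tinag and Gm4841. Elovl3, an enzyme that elongates very long chain fatty acids and is prominent in thermogenic fat, was at 21.8, 13.7, 7.64 and 4.597 in SW and 1.24, 2.24, 1.08 and 1.93 in DW males. The SW animals were spread over a wide range, while the DW animals lay close to the p21 males (1.385 ± 0.543). Elovl3 fell by 2.13 (SE 0.351, limma adjusted p 0.0068). Odad4, which docks dynein arms in cilia, was at 23.1, 13.6, 19.1 and 14.1 in SW and 3.79, 5.07, 7.99 and 6.41 in DW males. Without overlap, it fell by 1.45 (SE 0.295, limma adjusted p 0.0324), and it was called in 12 of 20 other settings with changes of -1.62 to -1.29. The call was lost with only the 12 males in the fit, with the run covariate, and without SW male 78, 84 or 85 or DW male 79, 80 or 87 (adjusted p up to 0.185). Tinag, an antigen of kidney basement membrane, was at 2.03 to 3.22 in SW and 1.02 to 1.54 in DW males, and Gm4841, a predicted gene, at 1.13 to 2.52 and 0.398 to 0.708. Both were low and were called in 9 and 8 of 20 other settings, and edgeR called neither.

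Enzymes of fatty acid synthesis from glucose lay lower in DW males as a group, although none passed the test by itself. Of 19 lipogenic enzymes and regulators, 17 were negative and 6 did not overlap with DW lower, with a median change of -0.42 against 0.0037 for all genes. The median was -0.27 without DW male 79. Slc25a1, the carrier that exports citrate from mitochondria for fatty acid synthesis, was at 1528, 1606, 1861 and 1311 in SW and 772, 787, 1044 and 881 in DW males. The groups were wide apart, and the DW level stood between those of SW and p21 males (599 ± 135). The change was -0.85 (SE 0.201, limma adjusted p 0.0903), and 3 of 20 other settings called it. Acly, which splits that citrate into acetyl-CoA, was at 2892, 3140, 3316 and 2978 in SW and 1330, 2118, 2764 and 2418 in DW males. Acacb, an acetyl-CoA carboxylase, was at 511 to 697 and 367 to 434, and Thrsp, a protein that raises lipogenesis, at 764 to 861 and 411 to 588. These 3 did not overlap, and their changes were -0.56, -0.50 and -0.68 (limma adjusted p 0.754, 0.633 and 0.267).

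Elovl6, which elongates the palmitate that synthesis yields, was at 763, 1008, 824 and 799 in SW and 248, 302, 634 and 692 in DW males. DW males 79 and 80 were well below DW males 86 and 87, and the same pair was lowest in Acaca, the first committed enzyme, at 1289 and 1595 against 2267 and 2426. Acaca overlapped with SW (2205 to 2682). Fasn, the fatty acid synthase, also overlapped, at 8450 to 12122 in SW and 5250 to 8812 in DW males. Scd1, the desaturase that makes oleate, did not follow the others and had a change of 0.09 with full overlap. Srebf1, the transcription factor of the pathway, was at 152 to 179 and 112 to 176. Within animals 79, 80 and 78, numbered 73 to 80, the list's median was -0.46, and within animals 84 to 87 it was -0.31.

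**Figure D3:**
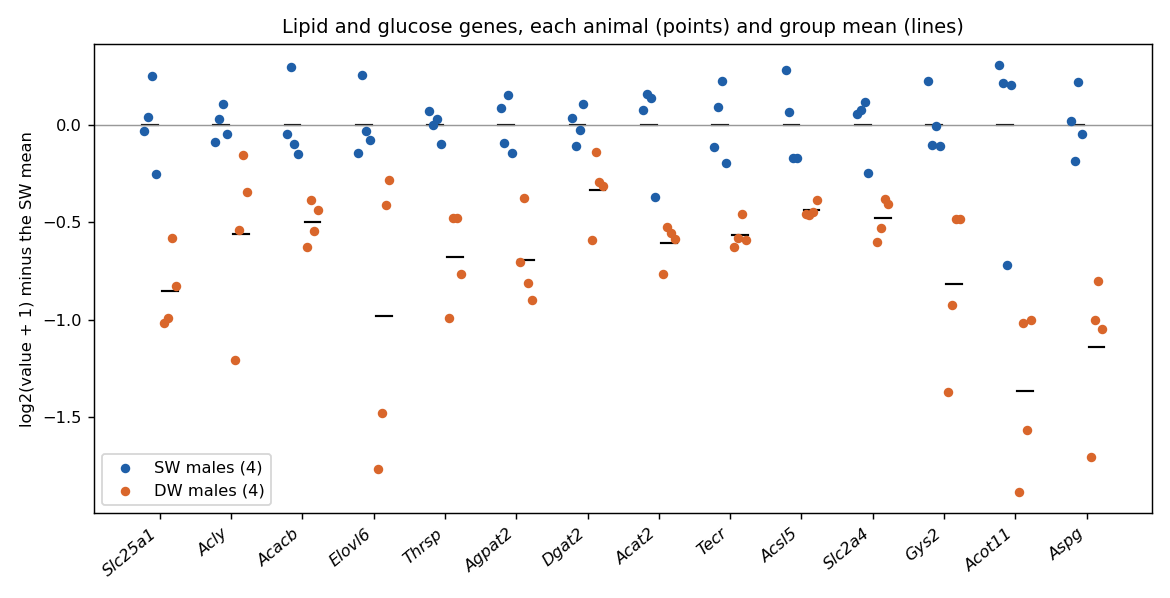
log2(value + 1) of each male minus the SW mean (y axis, log2 units) for 14 genes of lipid and glucose metabolism, with 4 SW (blue) and 4 DW (orange) animals as points and group means as lines. All 14 are genes whose groups did not overlap, so DW points lie below the SW points of the same gene by that choice. Genes that overlapped, such as Fasn, Acaca and Scd1, are not shown. Elovl6 and Acot11 show the widest spread.

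The steps that place fatty acids on glycerol showed the same direction for some members. Of 18 triglyceride assembly genes 11 were negative, 5 did not overlap with DW lower, and the median was -0.15. Agpat2, which adds the second fatty acid and whose loss causes lipodystrophy, was at 714, 632, 750.0 and 609.8 in SW and 414, 519.8, 384 and 361 in DW males. No animal overlapped, and the change of -0.70 (SE 0.218) was not called (limma adjusted p 0.316). Dgat2, which adds the last fatty acid, was at 683 to 795 and 489.7 to 668, and Gpd1, which makes glycerol 3-phosphate, at 3715 to 4107 and 2628 to 3310. Acsl5, which activates fatty acids, was at 94.9 to 130.1 in SW and 77.5 to 81.8 in DW males (change -0.44, limma adjusted p 0.307). Of 18 fatty acid uptake genes 13 were negative and 2 did not overlap. Cd36 and Lpl, which take up and release fatty acids from circulating fat, had positive changes of 0.27 and 0.09 with overlap. Of 22 lipolysis and droplet coat genes 15 were negative, 2 did not overlap, and Lipe and Pnpla2, the main lipases, overlapped.

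Glucose handling genes were in part lower. Slc2a4, the insulin-regulated glucose transporter GLUT4, was at 232, 236, 243 and 188 in SW and 147, 155, 171 and 168 in DW males. The lowest SW male, 124, was above the highest DW male, 86, and the change was -0.48 (SE 0.135, limma adjusted p 0.218). Slc2a5, the fructose transporter, was at 49.6 to 50.2 in SW and 13.5 to 37.4 in DW males, and Gys2, a glycogen synthase, at 26.1 to 33.2 and 10.3 to 20.0. Slc2a5 was far more spread in DW than in SW males, and neither gene was called (limma adjusted p 0.493 and 0.563). In the list of 24 insulin signalling and glucose uptake genes 16 were negative, 5 did not overlap with DW lower and 1, the hexokinase Hk1, with DW higher, for a median of -0.14. Insr and Akt2, the insulin receptor and its downstream kinase, and Irs1 overlapped. Among the largest changes over all genes, Acot11, a thioesterase of long acyl-CoA, was at 27.0 to 55.9 in SW and 11.5 to 22.0 in DW males, Aspg, an asparaginase, at 23.9 to 32.1 and 7.72 to 15.3, and Oxtr, the oxytocin receptor, at 24.1 to 42.2 and 14.1 to 18.8. These did not overlap, with changes of -1.37, -1.14 and -1.02 (limma adjusted p 0.403, 0.173 and 0.461).

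Cholesterol synthesis was mixed. Of 26 genes 18 were negative, 3 did not overlap with DW lower and 2 with DW higher, and the median was -0.15, or -0.089 without SW male 84. Acat2, which makes acetoacetyl-CoA at the head of the pathway, was at 168, 178, 175 and 123 in SW and 93.4, 110.4, 108 and 106 in DW males. It lay just outside the threshold, at -0.61 on the log2 scale (SE 0.132) and a limma adjusted p of 0.0519, and 6 of 20 other settings called it. Fdft1, squalene synthase, was at 47.3 to 99.1 and 38.8 to 45.4, and Pmvk, phosphomevalonate kinase, at 111 to 164 and 90.1 to 101. In the other direction stood Insig1, a sterol sensor of the endoplasmic reticulum, at 118 to 152 in SW and 178 to 241 in DW males. None of these 3 was called, with limma adjusted p values of 0.307, 0.758 and 0.477.

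Genes of the basement membrane and the surrounding matrix lay higher in DW males, and 1 of them, Pxdn, was called. Pxdn was at 287, 273, 262 and 214 in SW and 375, 391, 347 and 381 in DW males. No values overlapped, and both groups were above the p21 males (202 ± 8.22). The rise was 0.53 (SE 0.109, limma adjusted p 0.0334), it was 0.41 and 0.44 within the runs of animal numbers 73 to 80 and 81 to 87, and 10 of 20 other settings called it. The call was lost with edgeR, with only the 8 males in the fit, with the run covariate, and without SW male 84, 85 or 124 or DW male 79, 80 or 87 (adjusted p up to 0.136). Col4a1 and Col4a2, the collagen IV chains of every basement membrane and the substrate of peroxidasin, were at 1178 to 1508 and 829 to 1234 in SW and at 1800 to 2216 and 1376 to 1791 in DW males. Neither overlapped, and their changes of 0.59 and 0.57 were not called (limma adjusted p 0.593 and 0.796). Nid2, nidogen 2, which links collagen IV to laminin, was at 68.9, 54.3, 58.4 and 55.0 in SW and 101, 101, 92.3 and 107 in DW males. The change was 0.76 (SE 0.201, limma adjusted p 0.173). Col18a1, a basement membrane collagen that carries endostatin, was at 44.3 to 68.8 and 75.9 to 100.4.

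Of 43 collagens tested 32 were positive, 13 did not overlap with DW higher and 0 with DW lower, with a median of 0.11, which was 0.21 without SW male 124. Col6a3, a chain of the microfibrillar collagen VI that surrounds adipocytes, was at 393, 355, 295 and 356 in SW and 609, 524, 497 and 547 in DW males. It did not overlap, and the change of 0.64 (SE 0.198) was not called (limma adjusted p 0.307). Col6a1 was at 362 to 425 and 470.4 to 632, and Col28a1, a collagen of peripheral nerve, at 22.9 to 37.6 and 40.9 to 59.6 against 12.5 ± 2.99 in p21 males. The fibrillar chains Col1a1 and Col3a1 overlapped between the groups, with changes of 0.26 and 0.40. Of 26 elastic fibre and glycoprotein genes 25 were positive and 7 did not overlap, with a median of 0.30. Thbs2, thrombospondin 2, which restrains vessel growth, was at 31.8, 34.5, 29.2 and 32.9 in SW and 47.8, 49.7, 53.8 and 56.6 in DW males. Its groups were narrow and far apart, and the change was 0.68 (SE 0.166, limma adjusted p 0.106). Fbln2, Tnc and Postn, secreted matrix proteins of remodelling tissue, had changes of 0.55, 0.45 and 0.45 without overlap, whereas Eln and Fn1 overlapped. Of 26 genes that process and crosslink collagen 23 were positive and 3 did not overlap, and Lox, lysyl oxidase, overlapped. Of 40 matrix proteases and inhibitors 23 were positive and 5 did not overlap, with a median of 0.076. This list is set beside genes of like transcript length below.

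**Figure D4:**
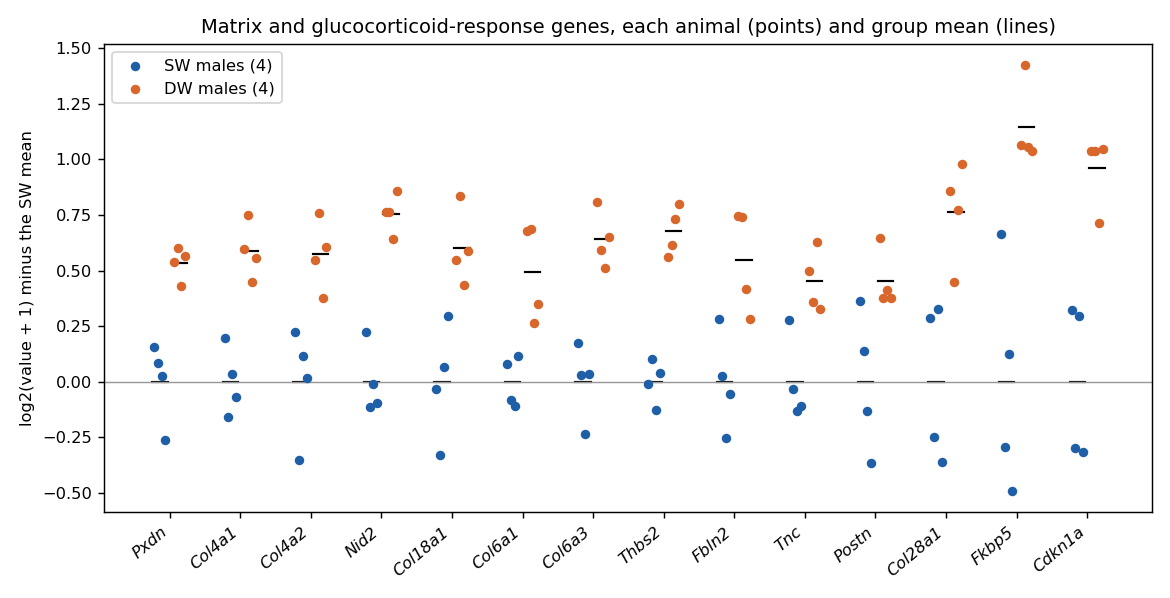
log2(value + 1) of each male minus the SW mean (y axis, log2 units) for 12 matrix genes and 2 genes of the glucocorticoid response, with 4 SW (blue) and 4 DW (orange) animals as points and group means as lines. All 14 are genes whose groups did not overlap, so DW points lie above the SW points of the same gene by that choice. Genes that overlapped, such as Col1a1, Col3a1, Eln, Fn1, Zbtb16 and Tsc22d3, are not shown. Pxdn is the called gene among the 14.

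Long transcripts were measured higher and short ones lower in DW than in SW males over all genes, and this moves with the matrix and mitochondrial lists. Matched to GENCODE M21 transcripts, 455 genes under 1000 bases had a median change of -0.22, and 1664 genes of 6000 bases or more had 0.088. Of the shortest genes 10.5% did not overlap with DW lower and 0.44% with DW higher, and of the longest 0.481% and 10.3%. Genes of 4000 to 6000 bases had a median of 0.061, and 8.68% did not overlap with DW higher. The matrix proteases and inhibitors (median transcript 4517 bases) had a median near that, at 0.076. It was 0.039 with the length trend removed. For genes under 1000 bases, DW male 87 stood at -0.29 from the mean of the 8 males and SW male 78 at 0.20, and the other 6 stood between -0.10 and 0.15. After each library's trend with length was removed, the matrix glycoprotein list kept 25 of 26 positive with a median of 0.29 and 4 genes not overlapping, and the collagens had a median of 0.044 with 10 higher and 1 lower. Pxdn was not called in that setting, while the lipogenic list had a median of -0.51 with 8 genes lower.

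**Figure D5:**
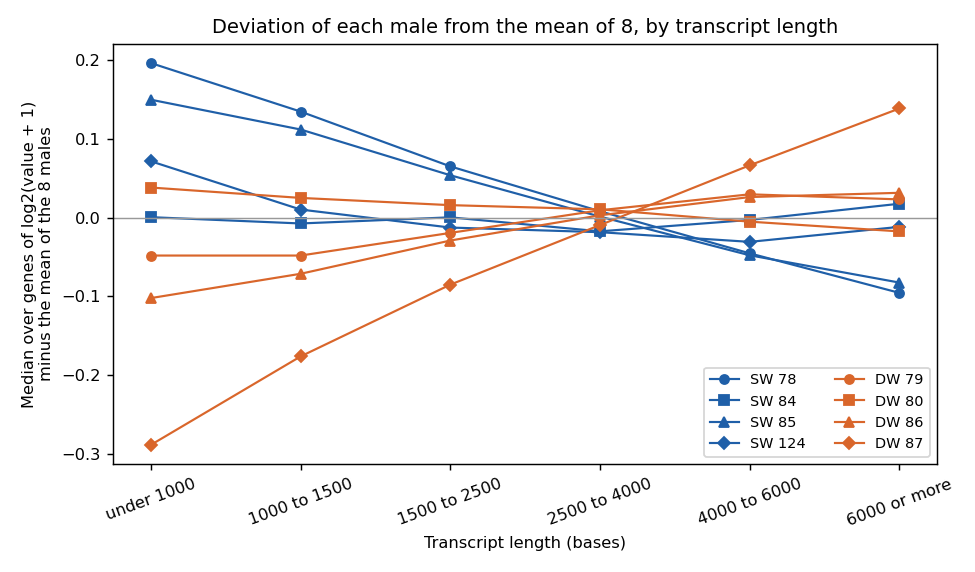
Median over genes of the deviation of each of the 8 males from their mean in log2(value + 1) (y axis), for 6 classes of transcript length in bases (x axis), with SW animals in blue and DW animals in orange. DW male 87 runs from -0.29 for the shortest to the highest value for the longest transcripts, and SW males 78 and 85 run the other way.

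Short-transcript groups were lower in DW males. Of 84 nuclear genes of the respiratory chain (median transcript 865 bases) 82 were negative and 11 did not overlap, with a median of -0.33. Among the 455 genes under 1000 bases given above, 48 (10.5%) did not overlap with DW lower, so this count is near that of short transcripts at large. Of 81 cytosolic ribosome genes (median 914 bases) 77 were negative with a median of -0.19, and of 75 mitochondrial ribosome genes (median 1339 bases) 74 were negative with -0.22. With the length trend removed these medians were -0.15, -0.015 and -0.12, with 76 of 83, 43 of 81 and 53 of 75 negative, and of the respiratory chain genes 3 did not overlap with DW lower and 1 with DW higher. The cytosolic ribosome median was -0.082 without DW male 87 and -0.28 without SW male 84. Uqcrb, a subunit of complex III, was at 638, 624, 702 and 445 in SW and 414, 388, 417 and 399 in DW males. It did not overlap, and the change of -0.55 (SE 0.17) was not called (limma adjusted p 0.307). Cox8a and Ndufa6, subunits of complexes IV and I, had changes of -0.62 and -0.53 without overlap and were not called.

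All 13 protein-coding transcripts of the mitochondrial genome were negative, 5 without overlap, with a median of -0.36. Their summed level was 241987 to 275815 in SW and 164717 to 241189 in DW males, which did not overlap, although the nearest animals were close. mt-Co2, a core subunit of cytochrome oxidase, was at 2332, 2627, 2002 and 1499 in SW and 960.2, 1115, 1265 and 1334 in DW males. The highest DW male, 87, was below the lowest SW male, 124, and the change of -0.84 (SE 0.291) was not called (limma adjusted p 0.426). With the length trend removed the list had a median of -0.23 with 9 of 13 negative and 1 not overlapping. Without DW male 87 and with no length correction the median was -0.54. Fatty acid oxidation genes, by comparison, were negative in 22 of 28 with 1 not overlapping. Ucp1, the uncoupling protein of thermogenic fat, was at 438, 206, 91.4 and 153 in SW and 73.2, 138, 85.2 and 117 in DW males. The groups overlapped, with SW male 78 the highest. Cidea, a droplet protein of thermogenic adipocytes, overlapped as well, and Kcnk3, a potassium channel of these cells, was at 104 to 136 and 59.6 to 95.7 without overlap and without a call. Of 24 beige and thermogenic genes 13 were negative and 2 did not overlap.

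Genes that glucocorticoids induce were in part higher in DW males. Of 19 such genes 15 were positive and 3 did not overlap, with a median of 0.27. Fkbp5, the cochaperone of the glucocorticoid receptor and a sensitive target of it, was at 56.6, 28.6, 38.5 and 24.8 in SW and 75.0, 96.4, 74.5 and 73.5 in DW males. All DW males were above SW male 78, the highest of its group, and the change was 1.15 (SE 0.355, limma adjusted p 0.307). Cdkn1a, an inhibitor of cyclin-dependent kinases and also a target of p53, was at 64.1, 41.4, 62.9 and 40.9 in SW and 106, 106, 84.6 and 107 in DW males. It did not overlap, its change was 0.96 (SE 0.221, limma adjusted p 0.0778), and 4 of 20 other settings called it. Sult1a1, a sulfotransferase, was at 144 to 209 and 216 to 256. Zbtb16 and Tsc22d3, both strongly induced by glucocorticoids in many tissues, overlapped, as did Hsd11b1, which regenerates the active hormone and had a change of -0.27. The median of the list was 0.14 without SW male 84 and 0.17 without DW male 79 or DW male 87. The palindrome letters ACANNNTGT of the receptor's site stood in 4 of 26 windows (15.4%) of 16 matched genes of the list and in 4.73% of all windows. The 4 windows belong to 3 genes. The list was searched whole, whether its genes rose or not, so the count describes the list and not the change in DW males.

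Secretory and nerve genes had small positive changes. Of 18 genes of endoplasmic reticulum chaperones and the unfolded protein response, 15 were positive and 3 were negative, down to -0.34. With DW higher 3 did not overlap, among them Pdia6, a disulfide isomerase, at 128 to 155 in SW and 162 to 176 in DW males (change 0.29, limma adjusted p 0.293). Of 20 Schwann cell and myelin genes 18 were positive and 3 did not overlap, with a median of 0.25, which was 0.034 within animals 73 to 80 and 0.31 within 81 to 87. Prx, periaxin of the myelin sheath, was at 14.5 to 21.1 and 21.4 to 28.2 without overlap. Summed Schwann markers were 626 to 850.4 in SW and 728 to 1016 in DW males. Pecam1 and Cdh5, markers of blood vessel endothelium, overlapped, with changes of 0.33 and 0.13.

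Immune and epithelial markers overlapped for most genes. Summed macrophage markers were 679 to 995 in SW and 802 to 969.97 in DW males, with 15 of 23 positive and 2 not overlapping. Adgre1, the F4/80 antigen of macrophages, was at 14.2 to 20.1 and 21.0 to 23.1, and Cd68 overlapped. T and NK cell genes were negative in 18 of 21 with a median of -0.18, but this was 0.12 within animals 73 to 80 and -0.099 within 81 to 87, and -0.071 without SW male 124 and -0.11 without DW male 87. MHC class II genes were negative in 9 of 10, with 0 not overlapping and a median of -0.21. That median was 0.17 within animals 73 to 80 and -0.19 within 81 to 87, and it was -0.027 without SW male 124 and -0.13 without DW male 87. Of the luminal keratins, Krt8 was at 6.94 in SW male 78 and at 0 to 1.87 in the other 7 males. Without SW male 78, 38 genes were called higher and 4 lower, close to the full count. The skeletal muscle list was negative in 17 of 19 with 0 not overlapping and a median of -0.31. Its sign turned with the animals included: the median was -2.36 within animals 73 to 80, 1.58 within 81 to 87, 0.57 without DW male 80, 0.23 without SW male 85 and -1.02 without SW male 84. Myh4, a fast myosin, was at 186 in SW male 84 and 166 in DW male 80 against 739 to 2973 in the other 6. The part of muscle admixture in other results was not tested. Of 20 major urinary protein genes 18 were negative and 7 did not overlap, with a median of -0.61. These transcripts are short (median 927 bases), and with the length trend removed the median was -0.43, with 1 gene lower and 2 higher without overlap. Mup17 was at 9.18 to 21.5 in SW and 6.50 to 7.84 in DW males. These genes are near-identical copies between which reads may be split, so single members are uncertain.

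Females at p28 were measured in other animals and had a positive change in all 37 genes that rose in males and a negative change in all 4 that fell. In females Sncg changed by 1.07 (limma adjusted p 0.0714), Mest by 0.73 (0.117), Odad4 by -1.32 (0.028) and Slc25a1 by -1.13 (0.00586). Of these, Odad4 was called in both sexes and Slc25a1 in females only, which is not a test of a difference. The lists of mitosis, fat pad expansion and lipogenic genes had female medians of 0.83, 0.57 and -0.39. In females 55 of 57 mitosis genes were positive and all 19 lipogenic genes were negative. Of the 8 fat pad expansion genes, all positive in males, 5 were positive and 3 negative in females. The female medians of the matrix glycoproteins, the glucocorticoid response and the collagens were -0.026, 0.0061 and -0.086. Female changes also ran with the GC content of transcripts. The female median was 0.14 for genes under 45% GC and -0.29 at 55% or more, against 0.039 and -0.047 in males. Median GC was 45.97% for mitosis, 53.95% for lipogenic, 53.47% for glycoprotein, 51.6% for glucocorticoid response and 55.67% for collagen genes. Female values were not corrected for this trend, and its part in them was not tested. Thbs2 changed by -0.04, Col4a1 by -0.12, Pxdn by 0.12 and Cdkn1a by 0.13 in females, none of them called. The test of the difference between the sexes called none of the 343 genes that the naming rule admits, with a lowest limma adjusted p of 0.708, and 3 of all 16005 genes, while 815 genes had an unadjusted p under 0.05.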

How the data were processed

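Poly(A) RNA libraries were made with the KAPA mRNA HyperPrep kit from RNA of a lipid tissue kit, per the labels' protocols. The authors deposited 1 signal per gene and sample, a read number divided by a factor of each sample. All values (100%) were whole multiples of 1 read's worth within 0.001, so whole reads were recovered. Per the submitters' processing notes, fastp, HISAT2, featureCounts, DESeq2 1.38.3 and the build mm10 were used, with no parameters given. Annotation and strand setting are not given in the sources used here, so overlapping and antisense genes cannot be separated. A log2 fold change and a p-value per gene for this comparison were deposited too and were not used here.

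The table had 16208 rows, of which 90 repeats of a gene were left out, leaving 16118 genes. filterByExpr with a minimum count of 10 on the whole reads kept 16005 of them. A single limma fit of all 24 samples was made on log2(value + 1) with 6 groups, 18 residual degrees of freedom and a variance trend (limma 3.58.1, R 4.3.3), and p-values were Benjamini-Hochberg adjusted over all genes. edgeR 4.0.16 and DESeq2 1.42.0 were run on recovered reads as alternatives, beside other filters, pseudocounts, subsets of samples, the run of animal numbers as a covariate and leaving out each animal. Removing the trend with transcript length, or with length and GC content, was chosen after seeing the data. The planned edgeR test for raw counts was not the main test because the file holds normalised values. The fitting script was tested on simulated data. Gene starts in the file did not match RefSeq GRCm38.p6, so positions are printed only for RefSeq promoters.

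The members and the 58 gene lists were chosen with earlier results of these data known. Genes named are the called ones, the first 4 tested genes of each list, up to 4 further non-overlapping genes per list and the 10 largest non-overlapping rises and falls among all genes, the last 2 kinds with a mean value of at least 5 in the 8 males. A few genes that this rule admits are not reported here. Whether each read stands for its own molecule is not known.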

Additional observations from a re-analysis of the deposited data

Results flagged for a closer look

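In 17 of 268 groups of 4 animals looked at (104 genes and 30 gene lists, in SW and in DW males), 1 animal stood apart from the other 3 on the log2 scale. Chance gives about 1 in 20. The number given is the gap of that animal to its neighbour as a share of the range of its group.

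Among DW males, animal 86 was low in Cdkn1a (0.976) and Sncg (0.882), and high in Krt8 (0.972) and in the mammary luminal epithelium list (0.909). DW male 79 was high in Adgre1 (0.879), in Postn (0.864) and in the list of matrix proteases and inhibitors (0.966). DW male 87 was high in Mki67 (0.842) and low in Cd68 (0.833), and DW male 80 was high in Fkbp5 (0.923). In Cdkn1a, Sncg, Mki67 and Fkbp5 the animal that stood apart still lay above all 4 SW males.

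Among SW males, animal 124 was low in Acat2 (0.848) and Cdh5 (0.848) and high in Hsd11b1 (0.853). SW male 85 was low in Acot11 (0.901), and SW male 84 was low in Myh4 (0.872). SW male 78 was high in Prx (0.863) and in the mammary luminal epithelium list (0.932). In Acat2 and Acot11 the low SW animal still lay above all 4 DW males.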

How the results depend on the processing

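The number of genes called higher in DW males, 37, was 93 with DESeq2, 81 with only the 8 males in the fit, 58 with the length and GC trends removed and 18 with the run of animal numbers as a covariate, and it ranged from 9 to 38 when single animals were left out. The number called lower, 4, was 21 with DESeq2, 17 with only the 8 males, 11 with the run covariate, 9 with the length and GC trends removed, and 2 with edgeR, with TMM-scaled log2 CPM and with only the 12 males, and it ranged from 1 to 13 when single animals were left out. edgeR called 27 genes higher. The cause of these shifts was not tested. Of 8018 single gene and list values over these settings, 227 lost a call, 43 gained one, 119 uncalled values moved by more than the spread between animals, 0 called genes reversed and 7629 did none of these. Called in all 20 other settings were Bub1b, Ccna2, Cdca2, Ckap2l, Elovl3, Kif20a, Knstrn, Mki67, Prc1 and Tpx2. All 41 called genes had the same sign within animals 73 to 80 (1 SW and 2 DW) and 81 to 87 (2 SW and 2 DW). As the groups of these 41 genes do not overlap, this outcome was fixed in advance, as was their sign when 1 animal was left out. No paired analysis was possible because the groups share no animal numbers.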
